A study of Mus musculus with 5 samples.

Results

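The expression of 9 genes of the neurotrophin, GDNF and neuregulin signalling systems was followed in mouse embryonic fibroblasts (MEFs), cultured connective tissue cells, that were kept in a defined induction medium. The 9 genes, out of 27729 genes in the files, were taken from a fixed list of symbols: the receptors Ngfr, Ntrk2, Ntrk3, Gfra1, Gfra2 and Erbb3 and the ligands Bdnf, Gdnf and Nrg1. All of the 9 symbols were found, and all 9 genes had 10 or more expected counts in at least 1 library. The libraries came from MEFs of ICR mice, untreated (day 0) or kept in the medium for 2, 5, 10 or 14 days, with 1 library per day, so no difference between days has a replicate check and no test was made. The medium is named 6C in the labels and 5C in the study's methods, and 5C is used here. The labels name no transgene. By its title the last library is from day 14, whereas its treatment text puts the last lysis on day 15, and the growth text gives 5000 cells per well.

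Neurotrophins, GDNF family ligands and neuregulins are secreted or membrane-bound growth factors by which target tissues, axons and glia support one another. Neurotrophins bind Trk kinases, among them Ntrk2 and Ntrk3, and the p75 receptor Ngfr. GDNF family ligands bind a GPI-anchored GFRA co-receptor, which engages the kinase Ret or the adhesion molecule Ncam1, and neuregulins bind Erbb3 or Erbb4, which signal in pairs with Erbb2. In the peripheral nerve, Ngfr, Erbb3 and GFRA co-receptors are well-known surface proteins of the Schwann cell lineage, and neuregulin 1 on axons is a survival and myelination signal for these cells.

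The expected counts, RSEM's estimates of the reads from each gene, totalled 2253748 to 3890334 per library, and 3 counts, the floor used for genes at 0, corresponded to between 0.771 and 1.33 per 1000000 counts. Normalized counts are expected counts scaled by TMM effective library sizes. Intervals are exact Clopper-Pearson 95% intervals of the counts of the 2 libraries compared, or of the 2 genes for a ratio within a library, and, because the reads had no molecular identifiers, the intervals and the floor cover counting error only. Levels of different genes were compared only as TPM, which accounts for gene length. In RNA from a whole culture, fewer cells of a type and less RNA per cell cannot be told apart.

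Of the 6 receptors, 5 were higher at the end of the culture than at its start by more than counting error, the exception being the scarce Ntrk3, whereas 2 of the 3 ligands were lower. On day 14, 7 of the 9 genes exceeded their day 0 level by over 2-fold and 2 had fallen over 2-fold short of it. Among all 13346 genes that reached 10 expected counts in any library (the genes kept), the shares were 24.5% above and 19.9% below. Those above were all 6 receptors and Gdnf, and those below were Bdnf and Nrg1. On day 10 the members were divided in the same way, 7 above and 2 below, beside 28.7% and 22.3% of all genes kept. On day 5, 6 members were above and 1 was below, beside 20.2% and 13.6%. On day 2, 3 were above (Ntrk2, Gfra2 and Erbb3) and 2 were below (Bdnf and Nrg1), beside 15.2% and 13.1%. Ntrk3 is counted as above on days 5, 10 and 14 although it had 10 or fewer counts in every library. On days 5 and 14 this rests on the pseudocount of 1: with a pseudocount of 5 the log2 change of Ntrk3 on day 14 was 0.92, and 5 members (day 5) and 6 members (day 14) were above. Gfra2 on day 2 rests on 3 counts. The median log2 change of the 9 genes was 0.03, 2.65, 3.06 and 4.18 on days 2, 5, 10 and 14, and that of all genes kept was −0.03, 0.05, 0.14 and 0.07.

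**Figure D1:**
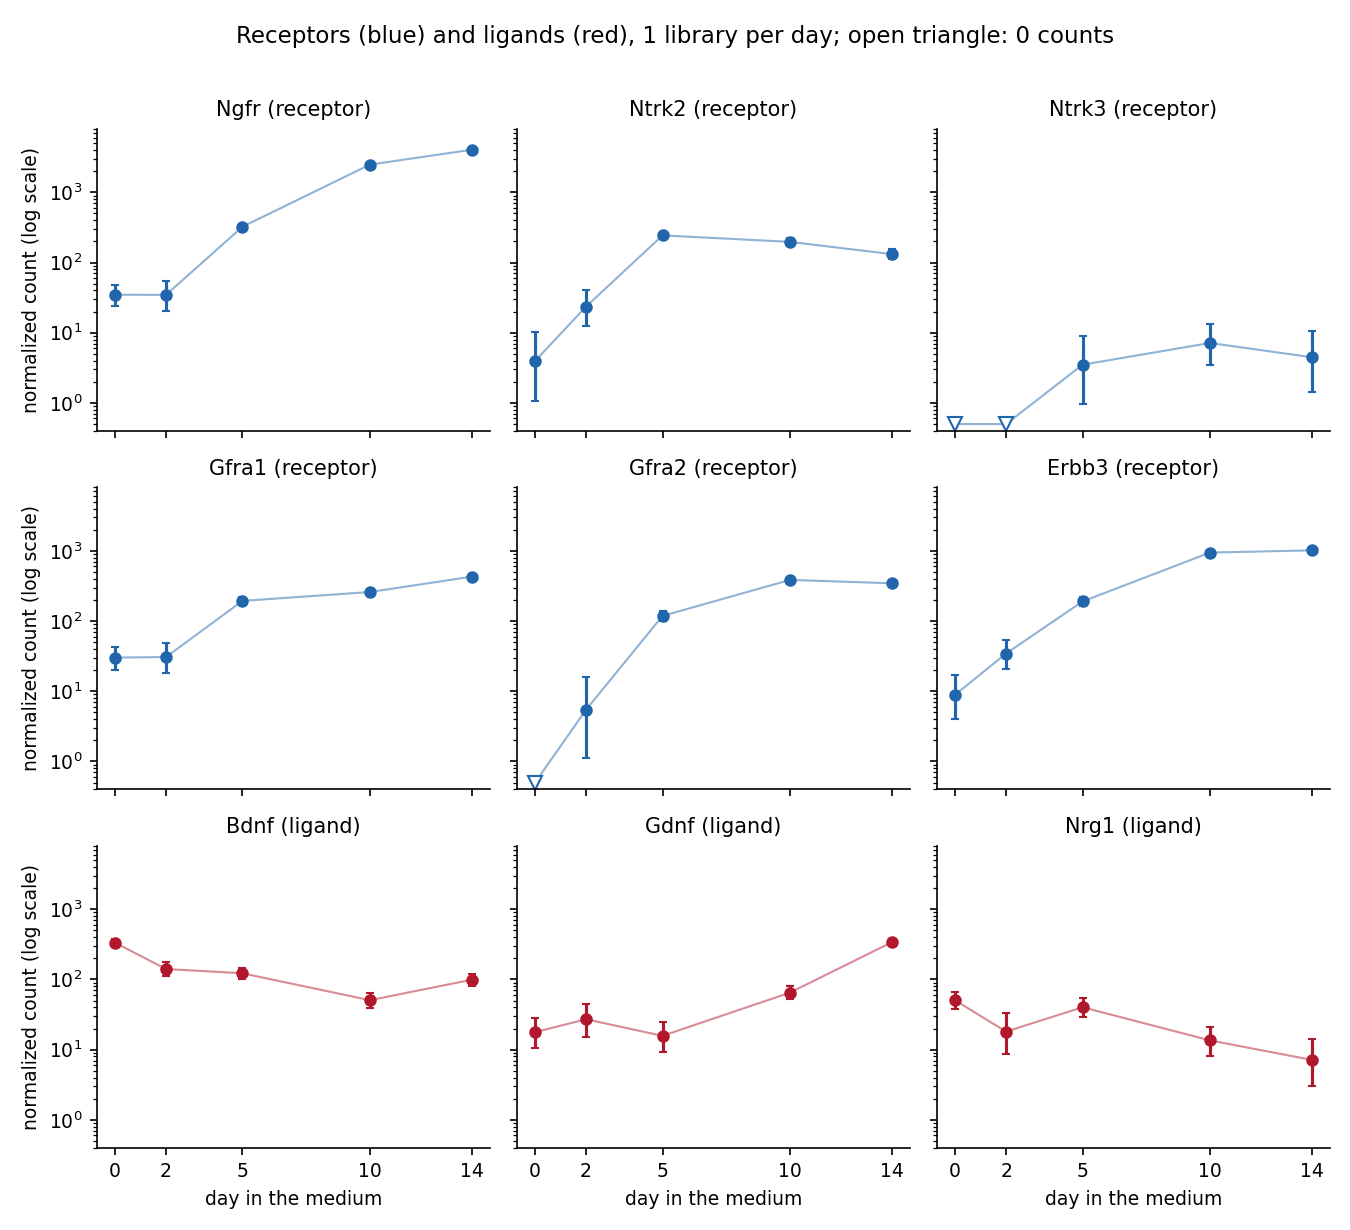
Normalized count (log scale) of the 6 receptors (blue) and the 3 ligands (red) against the day in the medium, with 1 library per day. Bars are 95% Poisson intervals and open triangles mark 0 counts; the receptors other than the scarce Ntrk3 were higher on day 10 than on day 2, Gdnf climbed after day 5, and Bdnf and Nrg1 ended below their day 0 level.

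Among the neurotrophin receptors, the p75 receptor Ngfr (ENSMUSG00000000120, GRCm38, chr11:95568818-95587735, minus strand) had the highest level. In order of time, from day 0 to day 14, its normalized counts were 34.8, 34.6, 323, 2480 and 4039. Days 0 and 2 did not differ beyond counting error, with a ratio of 0.994 (0.536 to 1.78), and each later library was above the one before it. Against day 0 the level was 9.29-fold (6.58 to 13.6) on day 5, 71.3-fold (51.4 to 103) on day 10 and 116-fold (83.7 to 168) on day 14. The step was 9.35-fold from day 2 to day 5, 7.68-fold from day 5 to day 10 and 1.63-fold (1.56 to 1.70) from day 10 to day 14, so most of the rise on the log scale fell between days 2 and 10. By TPM, Ngfr stood at rank 9254 among the genes kept on day 0 and at rank 172 on day 14, with 757 TPM. On day 14 only 60 of the genes kept had a larger log2 change.

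Ntrk2 (ENSMUSG00000055254, chr13:58806569-59133970, plus strand) encodes TrkB, the kinase receptor for the neurotrophin Bdnf. Unlike Ngfr it did not keep rising to day 14. Its expected counts were 4, 13, 278, 275 and 147 in order of time, which gave normalized counts of 3.96, 23.5, 243, 197 and 132. The level was 5.94-fold (1.84 to 25.01) that of day 0 on day 2, 61.5-fold (23.7 to 227) on day 5 and 33.2-fold (12.7 to 123) on day 14. Between days 5 and 10 the normalized count was lower by 1.24-fold (1.04 to 1.47), but the deposited TPM was higher, at 22.1 against 19.9, so which of these days was the highest depends on the scale. From day 10 to day 14 it was lower by 1.49-fold (1.22 to 1.84), while Ngfr was higher. The ratio of Ngfr to Ntrk2 in TPM went from 2.72 (2.32 to 3.18) at day 5 to 63.0 (53.5 to 74.8) at day 14. The files list 2 Ntrk2 transcripts, and the deposited mean transcript length was 7002 bases on days 0 and 2 and 7042, 7029 and 7068 bases later. In GENCODE M21 these transcripts are Ntrk2-201, of 8744 bases and with a coding region of 821 residues, and Ntrk2-202, of 6846 bases and 476 residues, which is too short to hold the kinase domain of TrkB. The annotation behind the deposited lengths is not given in the sources used here, and 7002 bases is the length of neither, so the share of each transcript cannot be read from these values.

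The bases before the start of Ngfr and Ntrk2 are shown because both receptors were over 30-fold above day 0 on day 14, and those before a start of Bdnf, the ligand of both, because it went the other way. For Ntrk2 they precede the gene's first annotated base, at 58806569, whereas the 2 Ntrk2 transcripts in the files start further on, at 58807697 and 58808281. The sequences are from RefSeq (GRCm38.p6), written 5′ to 3′ on the strand of the gene, and end at the base before the start site; for Ngfr the 37 bases that GENCODE places in exon 1 were left out.
Ngfr, chr11:95587736-95587948, minus strand: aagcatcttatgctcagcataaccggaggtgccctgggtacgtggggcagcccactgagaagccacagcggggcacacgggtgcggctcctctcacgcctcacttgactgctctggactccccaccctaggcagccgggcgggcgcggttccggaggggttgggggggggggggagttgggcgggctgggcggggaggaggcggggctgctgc
Ntrk2, chr13:58806319-58806568, plus strand: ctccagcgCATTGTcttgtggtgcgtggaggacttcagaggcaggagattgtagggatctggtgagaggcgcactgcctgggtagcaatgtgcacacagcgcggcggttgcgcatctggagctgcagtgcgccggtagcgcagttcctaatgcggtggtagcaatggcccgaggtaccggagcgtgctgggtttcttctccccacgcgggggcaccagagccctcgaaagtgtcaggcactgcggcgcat
Bdnf, chr2:109674450-109674699, plus strand: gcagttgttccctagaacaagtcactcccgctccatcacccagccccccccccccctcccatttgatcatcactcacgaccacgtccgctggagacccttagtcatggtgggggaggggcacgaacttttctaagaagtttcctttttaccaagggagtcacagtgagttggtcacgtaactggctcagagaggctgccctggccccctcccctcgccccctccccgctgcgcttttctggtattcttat
The capitals in the Ntrk2 sequence mark a match, on the minus strand, to ACAATG, a letter pattern bound by SOX factors. The patterns ACAAAG and ACAATG (SOX) and TGACGTCA (CRE, the cyclic AMP response element) were searched on both strands of the 250 bases before each start site. Of 32851 RefSeq promoters of this length, 25.2% held a SOX pattern and 1.55% the CRE pattern. Ngfr, Gfra1, both Gdnf starts and this Bdnf start held neither, and among the other Bdnf starts 1 held a SOX pattern. Such matches describe letters only. The Ngfr sequence was rich in G and C, at 70.9% of its bases, beside 62.8% for Ntrk2 and 58.0% for Bdnf, and the median over all promoters was 52.4%. Start sites of 5 of the 9 genes were in the table, and Ntrk3, Gfra2, Erbb3 and Nrg1 were not.

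Ntrk3 (ENSMUSG00000059146, chr7:78175959-78738012, minus strand), the TrkC receptor for neurotrophin 3, stayed at the edge of detection. It had 0 expected counts on days 0 and 2, 4 on day 5, 10 on day 10 and 5 on day 14. Counting intervals of its log2 ratio to day 0 began at −0.78 (day 5) and −0.27 (day 14), and so include no change, whereas that of day 10 began at 0.69. The summed TPM of Ngfr, Ntrk2 and Ntrk3 was 3.75 on day 0, 74.7 on day 5 and 770.5 on day 14. Ngfr made up 94.7% of this sum on day 0, 72.3% on day 5 and 98.3% on day 14.

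Among the receptors of GDNF family ligands, Gfra1 (ENSMUSG00000025089, chr19:58235604-58455909, minus strand), the preferred co-receptor of Gdnf, had normalized counts of 30.1, 30.7, 193, 259 and 428 from day 0 to day 14. As for Ngfr, the libraries of days 0 and 2 did not differ beyond counting error and the later ones rose step by step. The level was 6.43-fold (4.44 to 9.88) that of day 0 on day 5, 8.59-fold (5.99 to 13.1) on day 10 and 14.2-fold (9.97 to 21.6) on day 14. The kit used for the libraries does not mark strand, so reads of Gfra1 and of Gm16277, which overlaps it on the opposite strand, cannot be told apart. Ntrk2, Ntrk3, Bdnf and Nrg1 also have annotated genes on the opposite strand within their bounds.

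Gfra2 (ENSMUSG00000022103, chr14:70890120-70979838, plus strand), the preferred co-receptor of neurturin, went from 0 expected counts on day 0 to 3.01, 135, 539 and 385 on days 2, 5, 10 and 14. Its normalized counts on the last 3 days were 118, 385 and 344. Relative to the floor of 3 counts on day 0, the level was 39.8-fold on day 5, 130-fold on day 10 and 116-fold on day 14. These ratios to the floor are not lower limits. The counting intervals of the log2 ratio to day 0 began at 5.00, 6.72 and 6.55 on these days. Only 3 genes had a larger log2 change on day 10 and 5 on day 14, although for a gene at 0 on day 0 this value depends on the pseudocount of 1. From day 10 to day 14 the ratio was 0.895, with an interval from 0.782 to 1.02 that includes 1. Gfra2 and Gfra1 changed order between days: their ratio in TPM was, in time order from day 5, 0.783 (0.627 to 0.974), then 1.75 (1.53 to 2.00), then 0.999 (0.870 to 1.14).

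The other GFRA genes and the signalling partner were read beside them. Gfra3, the co-receptor of artemin, had normalized counts of 19.8, 47.0, 162, 916 and 604 and was the most abundant GFRA gene by TPM on days 5, 10 and 14. It held 46.1% of the summed TPM of the 4 GFRA genes on day 5, 71.3% on day 10 and 59.2% on day 14, when Gfra1 and Gfra2 each held 19.4%. Gfra4 had between 4 and 26 expected counts in each library, and Gfral, the receptor of Gdf15, had 0 in all 5. Ret, the kinase that GFRA co-receptors engage, went the other way, from 51 expected counts on day 0 to 1, 6, 4 and 2. It was 28.2-fold (7.43 to 239) lower on day 14 than on day 0. Ncam1, the alternative partner, had normalized counts of 305, 101, 70.8, 184 and 37.5, and was lower by 8.12-fold (5.87 to 11.5) on day 14. Thus on day 14 the GFRA genes summed to 332 TPM, beside 0.16 TPM of Ret and 8.39 TPM of Ncam1.

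Erbb3 (ENSMUSG00000018166, chr10:128567523-128589652, minus strand), a neuregulin receptor with little kinase activity of its own, had normalized counts of 8.91, 34.4, 190, 943 and 1015 from the first to the last day. Unlike Ngfr and Gfra1, it was already higher on day 2, at 3.86-fold (1.66 to 9.69), and days 10 and 14 did not differ beyond counting error, with a ratio of 1.08 (0.993 to 1.17). Against day 0 it was 21.3-fold (11.02 to 47.3) on day 5, 106-fold (55.6 to 232) on day 10 and 114-fold (59.8 to 250) on day 14. Its dimer partner Erbb2 went from 161 normalized counts on day 0 to 307 on day 14, which is 1.91-fold (1.58 to 2.31). The order of these receptors reversed: the ratio of Erbb3 to Erbb2 in TPM was 0.0460 (0.0207 to 0.0895) at the start, 1.15 (0.929 to 1.42) at day 5 and 2.72 (2.41 to 3.08) at the end. Egfr, the EGF receptor, was 1.63-fold (1.36 to 1.95) above day 0 on day 14, and Erbb4 had 5 expected counts on day 0 and 0 thereafter. Erbb3 accounted for 2.60% of the summed TPM of the 4 genes on day 0, 35.7% on day 5 and 62.6% on day 14.

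**Figure D2:**
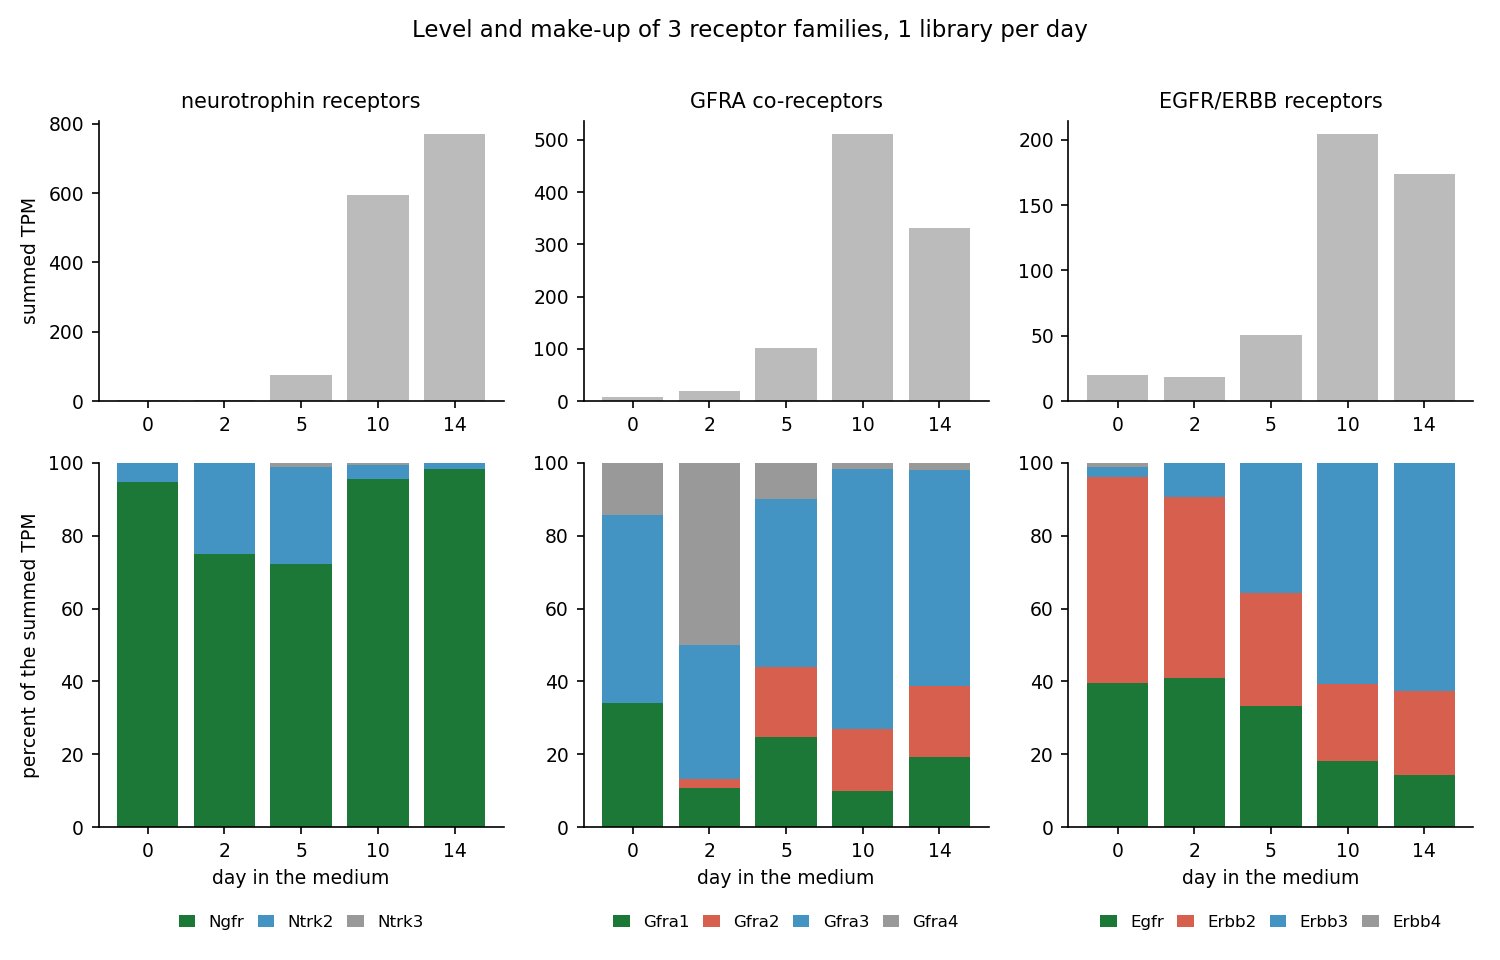
Summed TPM (upper row) of the neurotrophin, GFRA and ERBB receptor genes on each day, and the percent of that sum contributed by each gene (lower row), with 1 library per day. Ngfr made up 98.3% of the first family on day 14, Gfra3 59.2% of the second, and Erbb3 went from 2.60% to 62.6% of the third.

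By TPM, the order of the 9 genes on day 0 was Bdnf (29.6), Nrg1 (8.47), Ngfr (3.55), Gfra1 (2.32), Gdnf (1.79), Erbb3 (0.52) and Ntrk2 (0.20), with Gfra2 and Ntrk3 at 0. On day 14 it was Ngfr (757), Erbb3 (109), Gfra1 (64.3), Gfra2 (64.2), Gdnf (62.5), Bdnf (16.1), Ntrk2 (12.01), Nrg1 (2.20) and Ntrk3 (1.37). Bdnf, which led on day 0, was below 5 of the other genes on day 14. Neighbours in this order whose ratio could not be told from 1 within counting error were Ngfr and Gfra1, Gfra1 and Gdnf, and Erbb3 and Ntrk2 on day 0, and Gfra1 and Gfra2, Gfra2 and Gdnf, and Nrg1 and Ntrk3 on day 14.

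Among the ligands, Bdnf (ENSMUSG00000048482, chr2:109674700-109727007, plus strand), the neurotrophin that activates TrkB, was highest on day 0. Its normalized counts were 334, 141, 123, 50.7 and 99.2 in order of time. The 4 later libraries were all below day 0, by 2.37-fold (1.85 to 3.07) on day 2, 2.73-fold (2.24 to 3.35) on day 5, 6.59-fold (5.10 to 8.65) on day 10 and 3.37-fold (2.71 to 4.22) on day 14. Between days 10 and 14 it was higher again, by 1.96-fold (1.44 to 2.67). On the scale of the deposited TPM values the log2 change of Bdnf was −0.73 on day 5 and −0.87 on day 14, so those days no longer passed 2-fold. The files list 11 Bdnf transcripts, which share the coding exon and differ in their first exons. The deposited mean length was 4266 bases on day 2, the length of Bdnf-201, whose start follows the Bdnf sequence printed above, and 3973 bases on days 5 and 14, the length of Bdnf-205. On days 0 and 10 it was 3972 and 3971 bases. These lengths are estimates from 71 to 338 expected counts per library.

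Of the other neurotrophins read here, Ntf3, the ligand of TrkC, went from 25 expected counts on day 0 to 2 on day 14. Ntf5, a further ligand of TrkB, had 6 or fewer expected counts in every library.

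Gdnf (ENSMUSG00000022144, chr15:7810846-7837575, plus strand), a survival factor for dopaminergic, motor and enteric neurons, was the late gene of the set. Its normalized counts were 17.8, 27.1, 15.8, 65.0 and 340 in order of time. The first 3 libraries were within counting error of each other, and the last one stood well above the rest. Gdnf was 3.65-fold (2.18 to 6.43) above day 0 on day 10 and 19.1-fold (11.9 to 32.5) on day 14. The step from day 10 to day 14 was 5.23-fold (4.15 to 6.65), while the same step was 1.65-fold (1.44 to 1.90) for its co-receptor Gfra1. The ratio of Gdnf to Bdnf in TPM went from 0.0605 (0.0353 to 0.0967) on day 0 to 3.88 (3.13 to 4.83) on day 14.

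Artn, which encodes artemin, the ligand of Gfra3, was the most abundant ligand of the GDNF family from day 2 on. Its normalized counts were 6.93, 34.4, 101, 435 and 1077, and on day 14 it was 155-fold (75.2 to 387) above day 0. In contrast to Gdnf it was higher in each library than in the one before. The ratio of Artn to Gdnf in TPM went from 15.9 (9.57 to 27.6) at day 5 to 7.10 (6.28 to 7.94) at day 14. The remaining ligands of the family were scarce, with 6 or fewer expected counts of Nrtn (neurturin) and 4 or fewer of Pspn (persephin) in every library.

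Nrg1 (ENSMUSG00000062991, chr8:31814551-32884029, minus strand), the neuregulin that binds Erbb3, had normalized counts of 50.5, 18.1, 40.3, 13.6 and 7.15 from day 0 to day 14. It was 2.79-fold (1.40 to 6.16) lower than day 0 on day 2, 3.72-fold (2.16 to 6.67) lower on day 10 and 7.06-fold (3.33 to 17.2) lower on day 14, with 8 expected counts left. With TPM values the log2 change on day 10 was −0.72, which is under 2-fold. The library of day 5 was the exception, at 1.25-fold lower with an interval from 0.825 to 1.91 that includes no change. In the files Nrg1 has a single transcript, Nrg1-201, which spans chr8:31817756-31918280 in GENCODE M21 and therefore not the whole gene. Its deposited length of 2103 bases differs from the 2452 bases of GENCODE M21, so the span in the files may differ, and which Nrg1 exons were counted is not known. Of the other neuregulins, Nrg2 and Nrg3 had at most 1.27 expected counts in any library and Nrg4 at most 6.78.

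**Figure D3:**
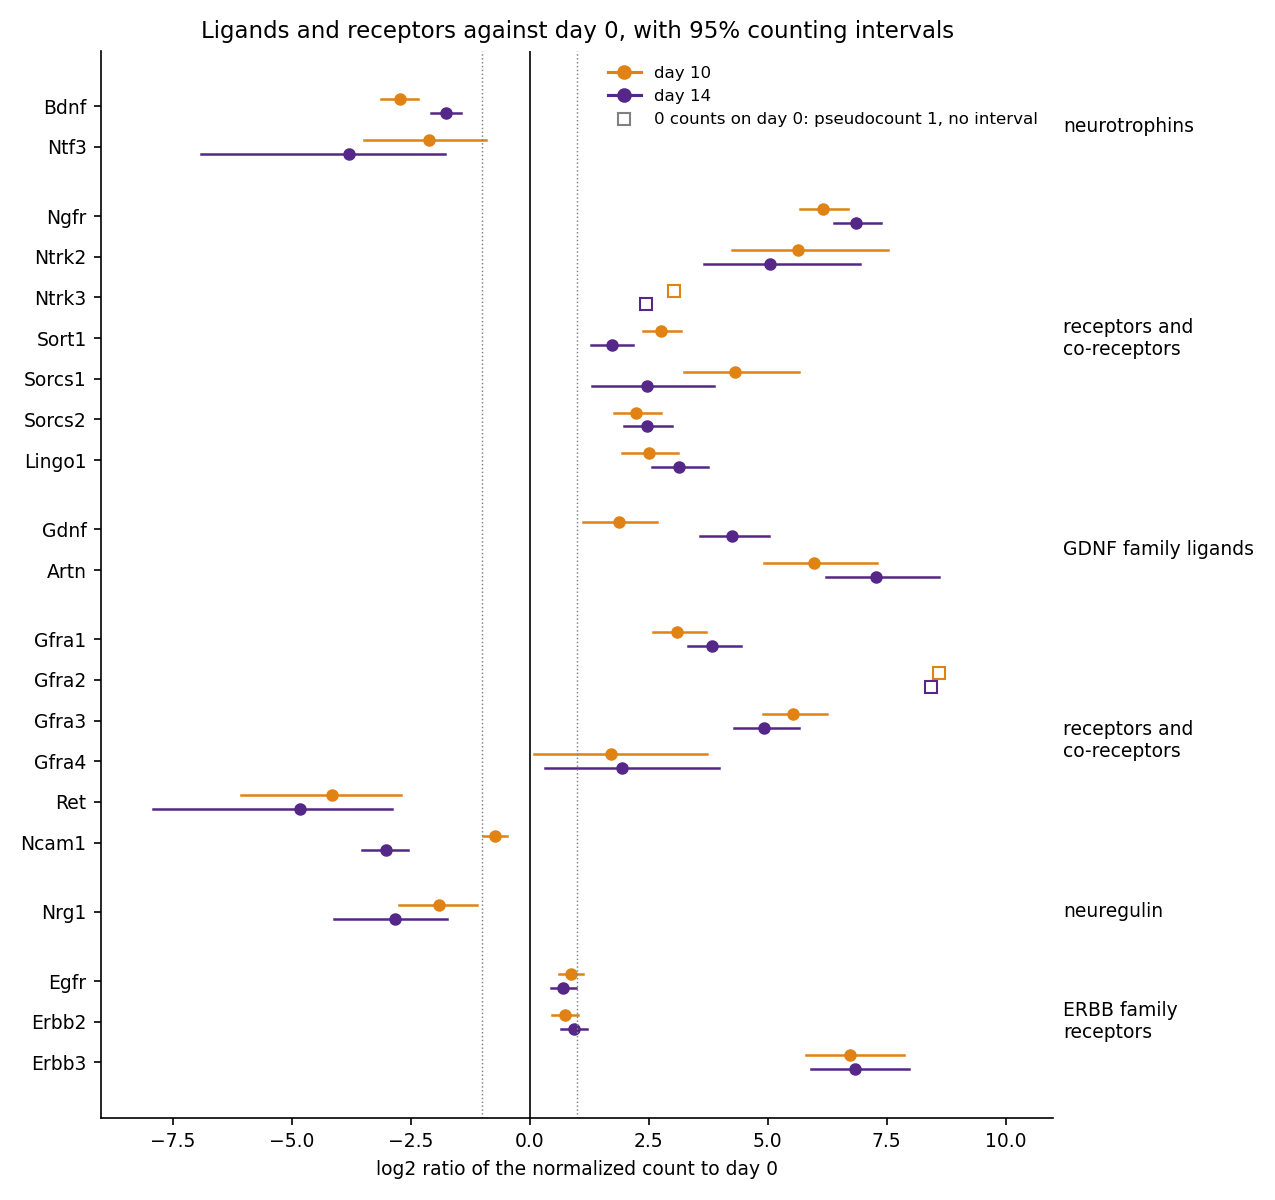
Log2 ratio of the normalized count to day 0 for ligands and receptors of the 3 families on day 10 (orange) and day 14 (purple), with 95% counting intervals. Dotted lines mark 2-fold and open squares are genes with 0 counts on day 0; Bdnf, Ntf3, Ret and Nrg1 lie left of the 2-fold line on both days, and Ngfr, Ntrk2, Gfra1, Gfra2, Gfra3, Artn and Erbb3 lie right of it.

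The genes with the most similar courses were sought for the 8 members other than Ntrk3, among the 8256 genes that reached 100 expected counts in any library, by the root mean square difference of the log2 changes over the 4 later days. For Ngfr they were Csmd1 (0.47), Plekhb1 (0.47) and Celsr1 (0.48). Those of Ntrk2 were Iigp1 (0.54), Selenop and Tril, and those of Gfra1 were H2-Q10 (0.25), Sema4c and Adssl1. Gfra2 was followed most closely by Steap4 (0.43), Chl1 and C3, and Erbb3 by Rasgef1c (0.24), Zfp536 and Col6a6. The nearest genes to Bdnf were Metrnl (0.091), Nip7 and Ebna1bp2, to Gdnf Fam210b (0.46), Gpc1 and Pfkfb4, and to Nrg1 Pmaip1 (0.22), Slmapos2 and Grem1. Within the set, Bdnf and Nrg1 were the closest pair (0.85) and Ngfr and Erbb3 the next (1.10). The genes named for Ngfr, Gfra2 and Erbb3, and Tril, had 2.97 or fewer normalized counts on day 0. Their log2 changes thus rest on a few counts and on the pseudocount of 1. With 4 values per gene these distances are descriptions.

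The other genes of the pathways were taken from lists that include the members. Of the 19 genes of the neurotrophin list 17 were kept, and on day 14, 7 of these were over 2-fold above day 0 and 4 below it, which is 41.2% and 23.5% beside 24.5% and 19.9% of all genes kept. The share below was thus near that of all genes. Besides Ngfr, Ntrk2 and Ntrk3, those above were the sortilin family members Sort1, Sorcs1 and Sorcs2, which bind proneurotrophins together with p75 or traffic Trk receptors, and Lingo1, a partner of Ngfr in the Nogo receptor complex. Sort1 had normalized counts of 56.4, 90.5, 144, 384 and 187 and was 3.31-fold (2.46 to 4.52) above day 0 on day 14. Sorcs1 was highest on day 10 as well, with 139 normalized counts against 6.93 on day 0. Lingo1 was 8.74-fold (5.91 to 13.4) and Sorcs2 5.55-fold (3.98 to 7.92) above day 0 on day 14. Those below were Bdnf, Ntf3, Rtn4r (the Nogo receptor) and Bex3, a p75-binding protein, which was 6.01-fold (5.10 to 7.08) lower.

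Of the 16 genes of the GDNF family list 12 were kept, with 7 above and 4 below on day 14. Gdnf, Artn, Gfra1 to Gfra4 and Dok4 were above, and Ret, Ncam1, Gdf15 and Dok5 were below. Dok4 and Dok5, adaptors that bind activated Ret, moved in opposite directions: Dok4 was 13.7-fold (10.2 to 18.5) higher and Dok5 11.4-fold (5.57 to 27.5) lower on day 14. Of the 14 genes of the neuregulin list 10 were kept, with 6 above and 1 below. The 6 were Erbb3, Lrig1, Erbin, Adam10, Adam17 and Bace1, and the 1 below was Nrg1. Lrig1, which promotes the degradation of ERBB receptors, went from 55.9 normalized counts on day 0 to 462 on day 14, which is 8.26-fold (6.31 to 11.2). The proteases that shed or cleave neuregulins were 3.37-fold (2.95 to 3.87) higher for Adam10, 3.34-fold (2.66 to 4.23) for Adam17 and 2.37-fold (1.92 to 2.93) for Bace1. Without the 9 members, 13 of 30 genes of the 3 lists (43.3%) were above and 7 (23.3%) below on day 14, with a median log2 change of 0.75. The same 24.5% and 19.9% are the background for each list count on day 14.

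**Figure D4:**
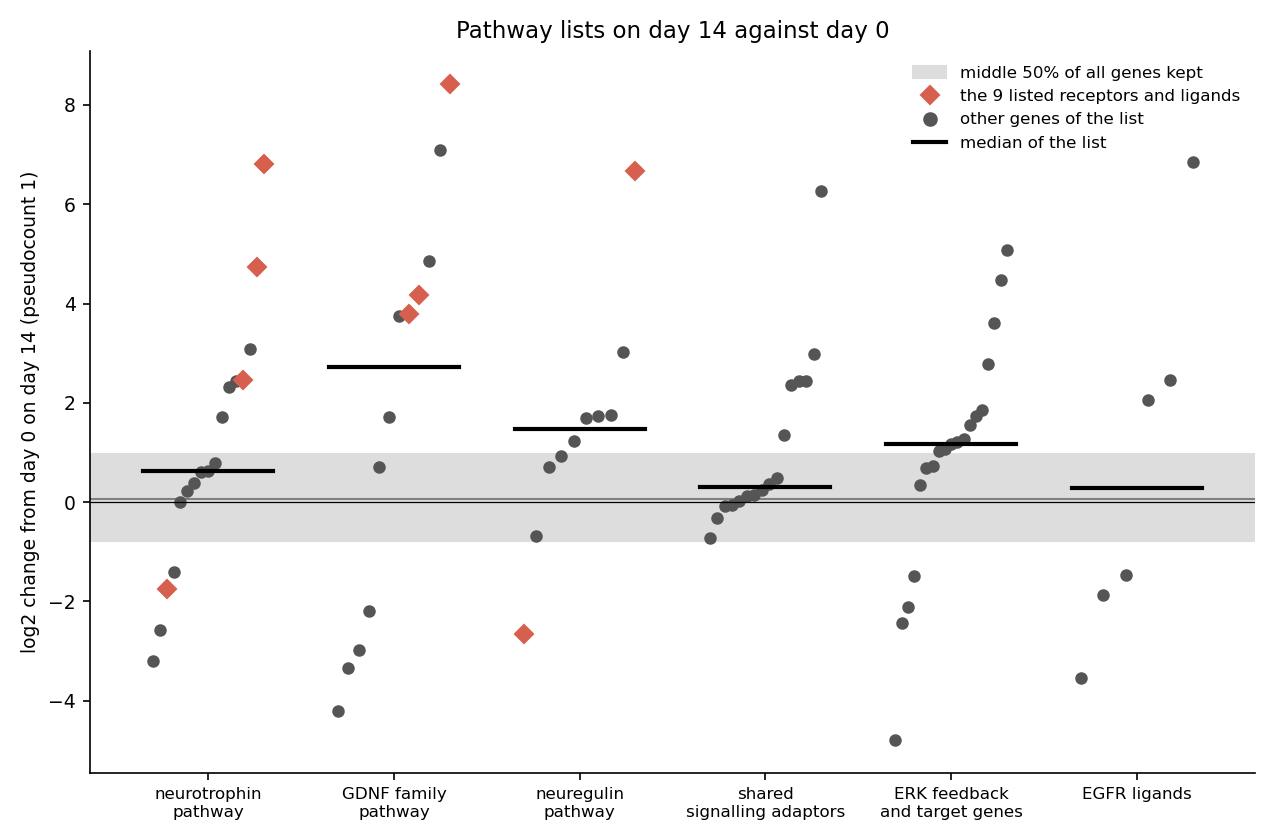
Log2 change from day 0 to day 14 (pseudocount 1) of the genes kept in 6 lists, with the 9 listed receptors and ligands as red diamonds, the median of each list as a black line and the middle 50% of all genes kept as a grey band. The GDNF family list spanned the widest range of the 6, with 7 genes over 2-fold above and 4 below day 0.

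The adaptors and targets downstream of these receptors serve many other growth factors too. Of the 16 shared adaptors kept, 6 were above and none below on day 14 by the same 2-fold measure, namely Shc4, Gab1, Gab2, Crkl, Irs2 and Sos2. Shc4, a member of the Shc adaptor family, rose from 0 expected counts on day 0 to 137 at day 10. On day 14 its level was 25.6-fold the floor used for genes at 0, which is not a lower limit. The counting interval of its log2 ratio to day 0 began at 4.35 on day 14. Gab1 and Gab2, docking proteins of ERBB receptors, were 5.50-fold (4.22 to 7.27) and 8.26-fold (5.25 to 13.6) above day 0. Of the 19 feedback and target genes of the ERK pathway, 12 were above and 4 below on day 14. Fos was 34.0-fold (28.5 to 40.8) and Egr2 7.11-fold (4.59 to 11.5) above day 0, whereas Vgf, a neurotrophin-induced secreted protein, went from 52 expected counts to 1. Dusp5, a nuclear ERK phosphatase, was 5.47-fold (4.43 to 6.81) lower.

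Markers of other cell types moved over the same days. The cells were labelled as fibroblasts, and none of the 10 fibroblast markers was at 0 in any library, with a summed TPM between 4969 and 25012, of which Vim gave 15668 TPM on day 14. On that day 4 of the 10 were over 2-fold above day 0 and 2 below it: Lum and Dcn were 62.6-fold and 29.3-fold higher, and Twist2 and Thy1 6.66-fold and 2.62-fold lower. The 12 Schwann cell and neural crest markers summed to 161 and 109 TPM on days 0 and 2 and to 458, 2705 and 1969 TPM on days 5, 10 and 14. Pmp22 gave 134 TPM of the sum on day 0. Over 2-fold above day 0 were 11 of the 12 on day 10 and 10 on day 14, beside 28.7% and 24.5% of all genes kept. Fabp7 was not above on either day, with 24, 19 and 18 expected counts on days 0, 10 and 14, and Pmp22 was 1.16-fold on day 14. Pou3f1 was at 0 on days 0 and 2 and had 6 expected counts on day 14. Of the 12 neuron markers 6 were kept, with 3 above and 2 below on day 14. Above were Tubb3, at 7.26-fold (4.73 to 12.1), and Snap25 and Nefl, which were scarce on that day. Snap25 had 7.01 expected counts against 0, and Nefl had 5 against 1.67, with an interval (0.370 to 23.7) that includes no change. Map2 was 4.30-fold (3.15 to 5.97) and Stmn2 2.75-fold (2.32 to 3.29) lower. On day 5, 4 of the 6 were above and 2 below, beside 20.2% and 13.6% of all genes kept. Nefl then had 83 expected counts and was 43.9-fold (9.84 to 308) above day 0, and Nefm was 4.11-fold (2.73 to 6.56) above it. By day 10 Nefl had 25 expected counts. The summed TPM of the 12 lay between 55.6 and 125, and Rbfox3 was at 0 in all 5 libraries. All 5 astrocyte markers were over 2-fold above day 0 on day 14, with sums between 3.88 and 112 TPM, and Gfap and Aqp4 at 0 on day 0. For Slc1a2 this rests on 1 expected count on day 0 and 4 on day 14. Its interval, from 0.358-fold to 178-fold, includes no change, and its TPM was 0.18 and 0.20. Aqp4 had 18 expected counts on day 14. The 6 macrophage markers summed to between 49.8 TPM on day 0 and 1445 TPM on day 5, of which Lyz2 gave 30.3 and 1252 TPM. On day 14, 4 of the 6 were over 2-fold above day 0, namely Lyz2, Cd68, Adgre1 and Ptprc, and Csf1r and Aif1 were not. Ptprc had 4 expected counts on day 14, and the interval of its log2 ratio began at −0.75, which includes no change. The summed TPM of the 6 endothelial and muscle markers was 83.4 on day 0 and 9.45 on day 14; of these only Des and Kdr were kept, both over 2-fold below day 0, and the others had 6 or fewer counts in every library. The part of any of these cell types in the changes of the 9 genes was not tested.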

How the data were processed

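The authors deposited, for each of the 5 libraries, expected counts per gene with TPM and FPKM values beside them. Per the submitters' processing notes the reads were aligned with Bowtie to mm10 (GRCm38) and quantified with RSEM, and versions are not given in the sources used here. The TPM values, which the authors deposited scaled to 1000000 per library, served for levels between genes, and the deposited FPKM values were not used. Symbols and coordinates came from GENCODE M21, which matched 27247 of 27729 identifiers. Expected counts were rounded for library sizes by TMM (edgeR 4.0.16, R 4.3.3) and for intervals (scipy 1.17.1), and log2 changes have a pseudocount of 1. The genes kept reached 10 expected counts in any library.

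With 1 library per day no test was possible, and a gene was counted as changed at over 2-fold. The members and gene lists were chosen with earlier results of these data known. The genes named are the 9 members, the 3 genes most like each, and genes of the pathway lists. The last reached 50 expected counts in any library and were over 2-fold on day 10 or 14, but not every such gene was named. Partners of the members below these limits were named for completeness after their values were seen, and cell type markers were named without these limits. Alternatives were DESeq2 size factors (1.42.0), total counts, TPM, other pseudocounts, filters and thresholds, and centring by gene length; leaving Gm42418 and Lars2 out of the library sizes was an alternative chosen after seeing the data. Some genes of the neurotrophin list are not reported here, and its counts leave them out. The computations were tested on simulated data. Python 3.11.15 was used with numpy 2.4.6, pandas 2.3.3 and matplotlib 3.10.9.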

Additional observations from a re-analysis of the deposited data

How the results depend on the processing

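No change of the 9 genes reversed among those over 2-fold, under any alternative. With TPM values, 0, 1 and 1 members were below day 0 on days 5, 10 and 14, the lists had 2 neurotrophin genes and 2 ERK targets below, and 10 adaptors above on day 14. With a 4-fold threshold, 0, 0, 1 and 1 members were below on days 2, 5, 10 and 14, and 2 neurotrophin genes were below, 2 neuregulin genes above and 4 ERK targets above on day 14. Without a filter on low counts 3 neuregulin genes were below, with 50 or more counts 2 neurotrophin genes were below, and with centring by gene length 2 neuregulin genes and 1 adaptor were below. The cause was not tested. Scaling shifted the median of all genes kept on days 5, 10 and 14, to 0.41, 0.60 and 0.42 with total counts and 0.72, 1.25 and 0.90 with TPM, and changes on those scales are to be read relative to these medians. Gdnf (−0.48 to 0.51) and Nrg1 (−0.35 to 0.38) on day 5 changed sign between alternatives and were over 2-fold in none. The same held for Ngfr (−0.26 to 0.08) and Gfra1 (−0.18 to 0.16) on day 2. Ntrk3, with 10 or fewer counts in each library, is limited by depth: its log2 change lay between 0.24 and 3.17 on day 5, 1.27 and 5.26 on day 10 and 0.59 and 3.88 on day 14. On days 5 and 14 it was under 2-fold with a pseudocount of 5, or with none and the floor of 3 counts on day 0. Thus 5 and 6 members were above on days 5 and 14 with a pseudocount of 5, and 5, 6 and 6 on days 5, 10 and 14 with 50 or more counts. No paired analysis was possible because each day has 1 library, and leaving out a library would leave its day without a value.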

Other observations

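The ligands of Egfr, another receptor of the ERBB family, did not move together. Of the 6 that were kept, 3 were over 2-fold above day 0 on day 14 and 3 below it, beside 24.5% and 19.9% of all genes kept. Btc (betacellulin), which also binds Erbb4, had 0 expected counts on day 0 and 1, 18, 19.96 and 128 on days 2, 5, 10 and 14. The level on day 14 was 38.4-fold the floor of 3 counts on day 0. Ereg (epiregulin) had normalized counts of 167, 72.4, 64.8, 11.4 and 13.4 and was 12.5-fold (7.35 to 22.8) lower on day 14. Hbegf, the heparin-binding ligand, had normalized counts of 289, 266, 95.4, 111 and 104 and was 2.79-fold (2.24 to 3.49) lower. Areg (amphiregulin) was highest on days 2 and 5, with 43.4 and 35.9 normalized counts against 5.94 on day 0 and 0.894 on day 14. By normalized count Etv4, a transcription factor induced by receptor kinases, was highest on day 2. Etv5, another such factor, had nearly the same value on days 2 and 5. Etv5 had normalized counts of 54.4, 335, 328, 266 and 127, and Etv4 had 69.3, 246, 144, 21.4 and 15.2. Etv1, the other Etv gene of the list, is not described here.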
